A study of Mus musculus with 7 samples.

Results

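The glycolysis, lactate and TCA cycle genes are 39 genes that take glucose into the cell, split it to pyruvate, exchange pyruvate for lactate, and feed pyruvate into the citrate cycle of the mitochondrion. They were chosen by name in the GENCODE M21 annotation of the mouse genome (mm10). No cut-off on a measured value was applied, but earlier results of these data were known. The 39 names matched 40 of the 55487 gene identifiers in the count files, because Aldoa has a second identifier (ENSMUSG00000114515) beside its main one (ENSMUSG00000030695). All 40 identifiers passed the filter on low counts and were among the 18779 genes tested. The libraries come from whole ovaries of C57BL/6J mice taken at postnatal day 60 in diestrus, with 1 mouse per library and poly(A) RNA in libraries that mark the strand. The 3 CNTR libraries are from daughters of dams injected with PBS. The 4 PAMH F3 libraries are from females whose F0 ancestor was given human recombinant anti-Müllerian hormone (AMH) while pregnant, at 0.12 mg/kg each day between E16.5 and E18.5, with no AMH given to the F2 and F3 lineages. The labels give the injections as subcutaneous and the study's methods as intraperitoneal. CNTR mice are F1 offspring and PAMH mice are F3 offspring, so generation and ancestral treatment cannot be told apart. Each library held between 32158174 and 35485021 counts on genes. In CNTR 1 to 3 the members together took 0.709%, 0.690% and 0.680% of them. In PAMH F3 1 to 4 they took 0.673%, 0.657%, 0.670% and 0.638%. All PAMH F3 libraries were thus below all CNTR libraries in this summed share, and the part of single members in this was not tested. In whole tissue, fewer cells of a type and less RNA per cell cannot be told apart.

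Glycolysis turns glucose into pyruvate in the cytosol. Glucose enters through facilitative transporters, hexokinase and phosphofructokinase commit it to the pathway, and a run of enzymes from glyceraldehyde-3-phosphate dehydrogenase to pyruvate kinase harvests ATP and NADH. Lactate dehydrogenase interconverts pyruvate and lactate, monocarboxylate transporters carry both across membranes, and the pyruvate dehydrogenase complex, which its kinases switch off, opens the way to citrate. In the ovary the oocyte uses glucose poorly, and granulosa cells are known to supply it with pyruvate made by their own glycolysis. Steroid-producing cells use NADPH, of which the cytosolic isocitrate dehydrogenase Idh1 is a source.

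How well these genes can be counted differs, and sequence shows where. Counts were made by the authors from 50-base reads that aligned to a single place in the genome. For each member, every 50-base window of its principal transcript was looked up in the annotated transcripts of all other genes. Of the 1371 windows of Gapdh, the enzyme that oxidises glyceraldehyde 3-phosphate, 1131 (82.5%) also stood in another gene. Over all annotated transcripts of Gapdh, 222 other genes shared a window, of which 213 are annotated as pseudogenes. The shared percentage was 72.2% for the enolase gene Eno1, 68% for the phosphoglycerate kinase gene Pgk1 and 41.5% for the phosphoglycerate mutase gene Pgam1. It was 30.5% for Pkm, 30.3% for Pdhb, 27% for Ldhb, 19.6% for Gpi1, 17.1% for Ldha and 13.9% for Aldoa. The other 30 identifiers had under 10% of their windows shared, and 22 had none. To show what a read from such a window looks like, the coding window held by most other genes is printed for Gapdh and Pgam1, from GENCODE M21 (mm10) on the strand of the gene, in lower case throughout since the whole window is shared. The Gapdh window, chr6:125162898-125162947 on the minus strand in exon 4 of 7, is also found in 84 other genes, of which 80 are pseudogenes. The Pgam1 window, chr19:41916679-41916728 on the plus strand in exon 3 of 4, is in 3 pseudogenes.
Gapdh: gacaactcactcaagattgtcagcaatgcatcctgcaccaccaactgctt
Pgam1: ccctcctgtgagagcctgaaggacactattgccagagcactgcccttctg

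Levels are given as CPM, counts scaled to a common library size with TMM factors, and between genes only per kilobase of annotated exons. Idh1 stood first, with 466.0 ± 104.9 CPM per kilobase (SD, n = 7), which ranked 26 among the 18779 genes tested. Aldoa followed at 225.8 ± 17.5, then the cytosolic malate dehydrogenase Mdh1 at 206.2 ± 11.6, Ldhb at 145.7 ± 10.3, the triose-phosphate isomerase Tpi1 at 110.0 ± 3.46 and Ldha at 90.3 ± 7.33. Idh1 was above Aldoa, and Mdh1 above Ldhb, in all 7 libraries, while Aldoa was above Mdh1 in 6 of 7. Per kilobase of the median annotated transcript Idh1 also stood first, but Mdh1 (851.1 CPM per kilobase) was above Aldoa (736.0), Ldhb moved from 4 to 9 in the order of 40, Ogdh from 9 to 22 and Slc2a3 from 22 to 10. At the other end, Gapdh had 2.76 ± 0.414 CPM per kilobase, the neuronal enolase Eno2 1.29 ± 0.315 and the pyruvate transporter Slc16a7 0.792 ± 0.0597. Several neighbours in the order did not differ beyond their spread: Eno1 (26.0 ± 2.89), Pfkm (25.1 ± 2.16) and Slc16a1 (24.7 ± 2.45) changed places between libraries, as did Dlat (13.3 ± 0.425) and Pfkfb3 (13.3 ± 2.40).

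When CPM was divided by the number of windows not shared with another annotated gene, in place of exon length, Gapdh moved from 37 to 16 in the order of 40 and Eno1 from 16 to 4. Their levels were then 47.5 and 254.2 CPM per 1000 such windows. Pgk1 moved from 30 to 23, and Pgam1 stayed at 35. This scale was added after seeing the data and searches annotated transcripts only. It also covers the principal transcript alone in place of all annotated exons, so genes without a shared window rose too. Hk1 went from 8.76 to 19.7 and Pfkp from 4.61 to 15.1. How much of the moves of Gapdh and Eno1 comes from that shorter length was not tested. The files themselves also show counts on the copies: the 213 pseudogenes that share windows with Gapdh summed to between 46.2 and 51.9 CPM in a library, against 9.63 to 13.7 for Gapdh. The pseudogenes of Pgk1, Pgam1 and Eno1 each summed to at most 0.302 CPM.

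**Figure D1:**
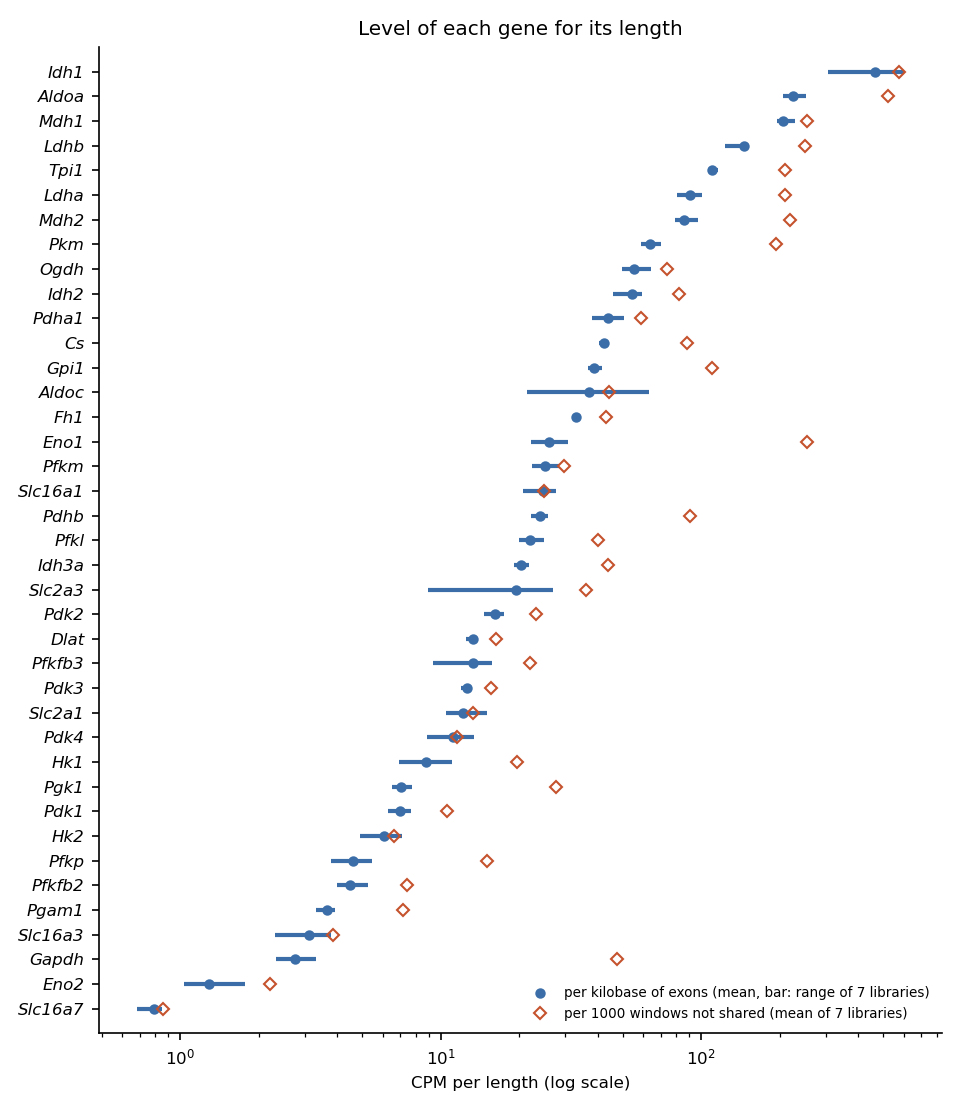
Level of each of the 39 genes for its length, on a log axis in CPM per kilobase. Filled points are means over 7 libraries per kilobase of exons with bars from the lowest to the highest library. Open diamonds are means per 1000 windows of 50 bases of the principal transcript not found in another annotated gene. Idh1 leads on both scales, and the diamond of Gapdh, at 47.5, lies far to the right of its point at 2.76.

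Between PAMH F3 and CNTR ovaries, Idh1 was lower and Slc2a3 higher at an unadjusted p under 0.05, the other members were not, and the median change of the members equalled that of all genes. The main test was edgeR's quasi-likelihood F test with 2 surrogate variables, which are per-library terms estimated from the counts to absorb unwanted variation. No member passed an adjusted p of 0.05 (Benjamini-Hochberg over the 18779 genes), and the members' adjusted p ran from 0.522 to 0.999. By the same rule 0% of all genes were called, while 1432 had an unadjusted p under 0.05. At an unadjusted p under 0.05, 1 member was higher (Slc2a3) and 1 was lower (Idh1), against 3.89% of all genes higher and 3.74% lower. The median log2 fold change of the 40 identifiers was 0.007, and 0.007 over all genes tested. The median size of the change was 0.06 for the members and 0.10 for all genes, without matching for count level. Of the 40 identifiers, 31 had a fitted change of at most 0.1 in size, and outside Idh1 and Slc2a3 the largest was 0.22, for Aldoc. In no member did the CPM of the groups lie apart without overlap, where 2.00% of all genes were higher without overlap and 2.26% lower. Without surrogate variables no member had an unadjusted p under 0.05, against 1.17% of all genes higher and 2.72% lower. DESeq2 with the same surrogate variables called 1 member, Idh1, and 107 genes in all.

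Idh1, the cytosolic enzyme that turns isocitrate into 2-oxoglutarate and makes NADPH, lies on chr1:65158616-65186500 on the minus strand (ENSMUSG00000025950). Its CPM was 1658, 1249 and 1567 in CNTR 1 to 3, and 1467, 1042, 850.5 and 1205 in PAMH F3 1 to 4. The 3 lowest libraries were all PAMH F3, but PAMH F3 1 stood above CNTR 2, so the groups overlapped. The group means were 1491 ± 214.7 (SD, n = 3) and 1141 ± 261.3 (SD, n = 4), and the fitted log2 fold change was -0.51 (SE 0.12, unadjusted p = 0.00432 and adjusted p = 0.522 in edgeR). Without surrogate variables the log2 fold change was -0.39 (SE 0.18, unadjusted p = 0.0599 in edgeR). DESeq2 with the same surrogate variables gave an adjusted p of 0.0157, while over all 17 alternatives the adjusted p ranged from 0.0157 to 1. Leaving out CNTR 1 brought the log2 fold change to -0.33 (unadjusted p = 0.0747 in edgeR).

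Idh2, the mitochondrial NADP enzyme, had 153, 135 and 119 CPM in the CNTR libraries and 144, 137, 153 and 138 in the PAMH F3 libraries. The share of Idh1 in Idh1 plus Idh2, per kilobase of exons, was 91.0%, 89.7% and 92.5% in CNTR and 90.5%, 87.7%, 83.9% and 89.1% in PAMH F3. The PAMH F3 libraries held the 3 lowest shares, and PAMH F3 1 stood above CNTR 2. The difference of the means, -3.27 percentage points, did not pass an exact two-sided permutation test over the 35 divisions of the libraries (p = 0.114, adjusted over the 2 shares tested 0.229), in which the smallest possible p is 0.0286. Without PAMH F3 3 the difference was -1.96 percentage points.

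Slc2a3 (chr6:122727809-122801640, minus strand), which encodes the high-affinity glucose transporter GLUT3, varied most between libraries after Aldoc. Its CPM was 147, 180 and 64.9 in CNTR and 127, 173, 195 and 97.9 in PAMH F3. CNTR 3 was the lowest of all libraries and PAMH F3 3 the highest, with the rest of the groups intermingled. The means were 130.5 ± 59.2 (SD, n = 3) and 148.5 ± 44.0 (SD, n = 4). The log2 fold change was 0.29 (SE 0.07, unadjusted p = 0.00556 and adjusted p = 0.522 in edgeR) with 2 surrogate variables and 0.19 (SE 0.33, unadjusted p = 0.592) without them. Across the libraries Slc2a3 had r = -0.91 with the first surrogate variable, so its fitted value and SE depend strongly on that term. Leaving out CNTR 3 took the fitted value to 0.07 (unadjusted p = 0.364 in edgeR). Slc2a1, the widely expressed transporter GLUT1, had 42.6, 52.9 and 40.4 CPM in CNTR and 38.7, 40.6, 47.6 and 37.0 in PAMH F3, and its log2 fold change was -0.08 (SE 0.06, unadjusted p = 0.241 in edgeR). Its highest library was CNTR 2 and its lowest PAMH F3 4.

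**Figure D2:**
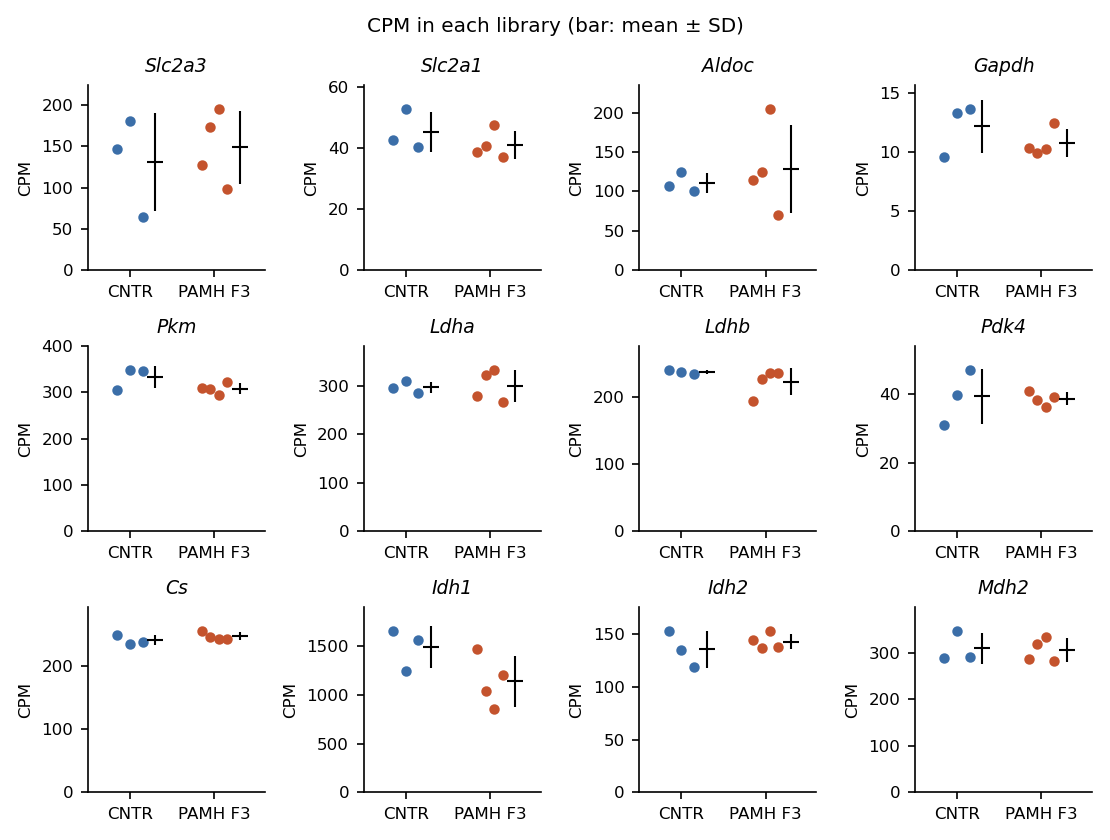
CPM of 12 members in each library, with CNTR in blue (n = 3) and PAMH F3 in orange (n = 4), and bars for the mean ± SD beside the points, on axes that start at 0. Idh1 has its 3 lowest values in PAMH F3, Slc2a3 its lowest value in CNTR 3 and Aldoc its highest in PAMH F3 3.

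In the preparatory phase of glycolysis, none of the 12 identifiers had an unadjusted p under 0.05, and the fitted log2 fold changes ran from -0.21 to 0.22 around a median of 0.02. Hk1, the housekeeping hexokinase, had 71.5, 94.3 and 71.2 CPM in CNTR and 77.7, 72.1, 77.6 and 58.9 in PAMH F3. CNTR 2 was the highest library and PAMH F3 4 the lowest, and the log2 fold change was -0.07 (SE 0.09, unadjusted p = 0.474 in edgeR). Hk2, the insulin-responsive hexokinase, gave the lowest fitted value of the group, -0.21. Pfkl, the liver-type phosphofructokinase subunit, had 137, 164 and 146 CPM in CNTR and 133, 143, 166 and 140 in PAMH F3. Its groups spanned nearly the same range, with a log2 fold change of 0.03 (SE 0.06, unadjusted p = 0.663 in edgeR). The muscle-type subunit Pfkm (0.02) and the platelet-type Pfkp (0.01) had fitted values near 0, as had Pfkfb2 (0.04) and Pfkfb3 (-0.05), the enzymes that make and remove the phosphofructokinase activator fructose 2,6-bisphosphate. Gpi1, glucose-6-phosphate isomerase, was at -0.01, Aldoa at 0.01 and Tpi1 at 0.04.

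Aldoc, the brain-type aldolase, had the highest fitted value of the group, 0.22, from 107, 125 and 101 CPM in CNTR and 114, 125, 205 and 69.9 in PAMH F3. PAMH F3 libraries thus held both its highest and its lowest value. Of the aldolase level per kilobase, Aldoc took between 8.91% (PAMH F3 4) and 20.6% (PAMH F3 3), and Aldoa the rest. The second Aldoa identifier, on chr7:126800790-126809108 and just upstream of the main one, had between 22 and 33 counts per library.

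The pay-off phase of glycolysis, from Gapdh to pyruvate kinase, also held no member with an unadjusted p under 0.05. Gapdh had 9.63, 13.3 and 13.7 CPM in CNTR and 10.4, 9.98, 10.3 and 12.5 in PAMH F3, with CNTR 1 the lowest of all. Its log2 fold change was -0.07 (SE 0.11, unadjusted p = 0.532 in edgeR) and rests on 319 to 444 uniquely aligned reads per library. Without CNTR 1 it was -0.34 (unadjusted p = 0.0227 in edgeR). Pkm, pyruvate kinase, had 306, 349 and 346 CPM in CNTR and 310, 308, 294 and 322 in PAMH F3. CNTR 2 and CNTR 3 stood above all others and CNTR 1 within the PAMH F3 range, with a log2 fold change of -0.08 (SE 0.06, unadjusted p = 0.219 in edgeR). Without CNTR 1 the log2 fold change of Pkm was -0.18 (unadjusted p = 0.0218 in edgeR), in a fit where 17.1% of all genes had an unadjusted p under 0.05. The fitted values of Pgk1 and Eno1 were both 0.11, that of Pgam1 was -0.06, and that of Eno2 was -0.07. Eno1 made up between 93.3% and 96.8% of the enolase level per kilobase in every library.

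None of the 5 genes of lactate exchange had an unadjusted p under 0.05. Ldha, the lactate dehydrogenase subunit that prevails in glycolytic tissue, had 296, 310 and 285 CPM in CNTR and 278, 323, 333 and 266 in PAMH F3. The CNTR libraries lay inside the PAMH F3 range, and the log2 fold change was 0.04 (SE 0.07, unadjusted p = 0.622 in edgeR). Ldhb, the subunit that prevails in oxidative tissue, had 240, 237 and 234 CPM in CNTR and 193, 226, 235 and 235 in PAMH F3. PAMH F3 1 was the lowest library, and the log2 fold change was -0.08 (SE 0.08, unadjusted p = 0.359 in edgeR). The share of Ldha in Ldha plus Ldhb, per kilobase of exons, was 36.9%, 38.3% and 36.6% in CNTR and 40.6%, 40.4%, 40.2% and 35% in PAMH F3. Of the PAMH F3 libraries 3 stood above all CNTR libraries and 1 below them, and the means differed by 1.76 percentage points (exact two-sided permutation test over 35 divisions, p = 0.286, adjusted over the 2 shares 0.286). Without PAMH F3 4 the difference was 3.12 percentage points. Which subunit has the higher level depends on the length used, since per median transcript length Ldha took 55.8% to 61.6% of the sum.

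Slc16a1, the widely expressed lactate transporter MCT1, had 123, 91.5 and 120 CPM in CNTR and 99.7, 110, 112 and 110 in PAMH F3. The CNTR libraries enclosed the PAMH F3 libraries, and the log2 fold change was -0.09 (SE 0.10, unadjusted p = 0.396 in edgeR). It supplied 82.9% to 89.7% of the level per kilobase of the 3 transporters. Slc16a3, the lactate exporter MCT4, supplied 7.5% to 14.4% and Slc16a7 2.56% to 3.18%, and their fitted log2 fold changes were 0.08 and -0.06. Per median transcript length Slc16a1 took 47.2% to 62.0% and Slc16a3 28.3% to 44.8%.

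At the entry to the mitochondrion, the pyruvate dehydrogenase genes Pdha1, Pdhb and Dlat had fitted log2 fold changes of -0.09, -0.05 and 0.00. Among the kinases that inactivate the complex, Pdk4, the form known to be induced by fasting, had 31.2, 39.9 and 47.2 CPM in CNTR and 41.1, 38.5, 36.4 and 39.2 in PAMH F3. CNTR libraries were both the lowest and the highest, and the log2 fold change was 0.07 (SE 0.08, unadjusted p = 0.371 in edgeR) with 2 surrogate variables and -0.02 without. Pdk1, Pdk2 and Pdk3 had fitted values of 0.03, 0.01 and -0.00. All 4 kinases were present, Pdk2 with 32.0% to 36.9% of their level per kilobase, Pdk3 with 25.2% to 28.6%, Pdk4 with 19.7% to 27.9% and Pdk1 with 13.1% to 17.1%. This order depends on the length used, since per median transcript length Pdk2 took 27.7% to 32.1%, Pdk4 21.9% to 31.2%, Pdk1 20% to 26.0% and Pdk3 19.3% to 21.9%.

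In the citrate cycle outside Idh1 and Idh2, Cs, citrate synthase, had 250, 234 and 238 CPM in CNTR and 256, 246, 243 and 243 in PAMH F3. Its coefficient of variation over the 7 libraries was 2.93%, and the log2 fold change was 0.02 (SE 0.05, unadjusted p = 0.769 in edgeR). Mdh2, the mitochondrial malate dehydrogenase, had 289, 347 and 292 CPM in CNTR and 286, 318, 335 and 283 in PAMH F3. CNTR 2 was its highest library, and the log2 fold change was 0.04 (SE 0.05, unadjusted p = 0.491 in edgeR). Fitted values were -0.11 for Mdh1, 0.13 for Ogdh of the 2-oxoglutarate dehydrogenase complex, -0.04 for Idh3a of the NAD isocitrate dehydrogenase, -0.05 for the fumarase gene Fh1 and 0.04 for Idh2.

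**Figure D3:**
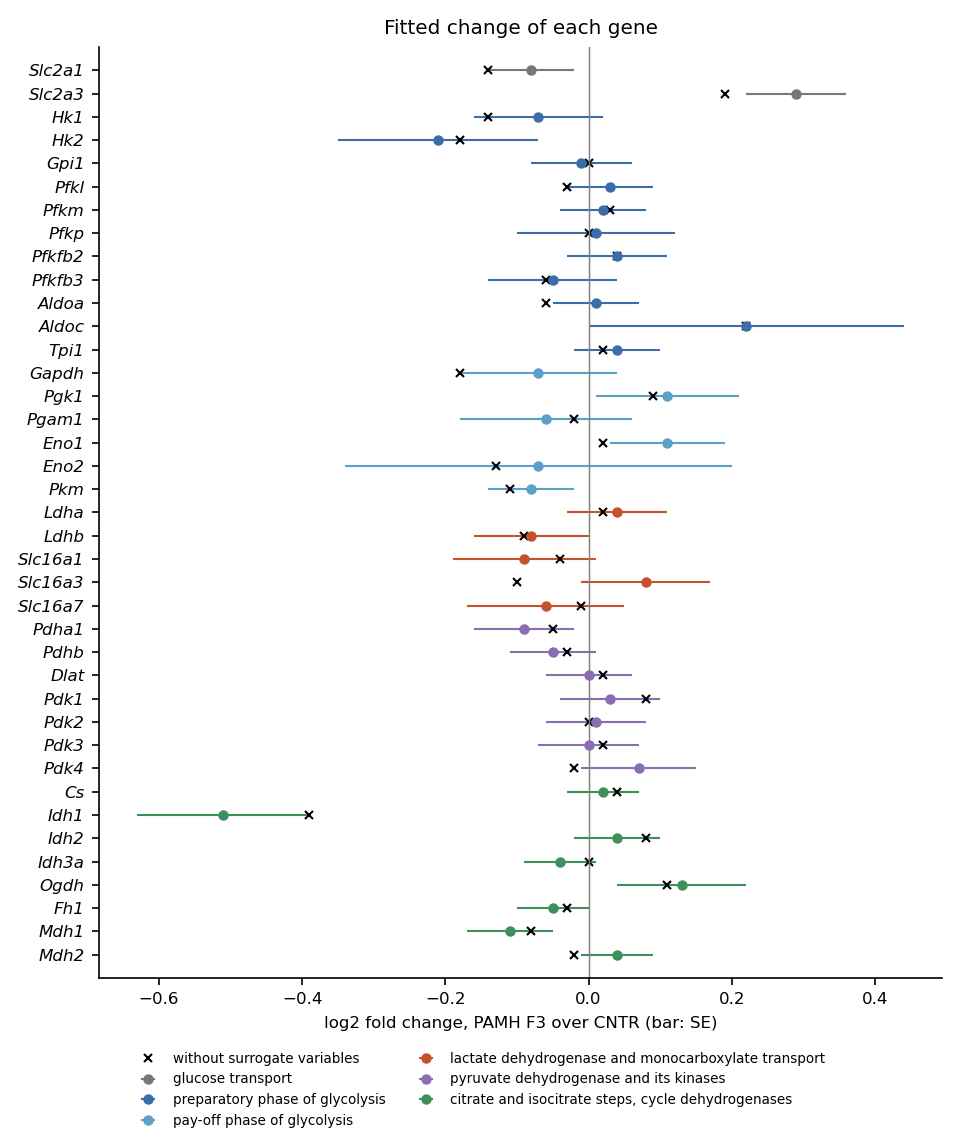
Fitted log2 fold change of PAMH F3 over CNTR for the 39 genes with 2 surrogate variables (points, bars for 1 SE, coloured by role) and without them (crosses). Idh1 at -0.51 and Slc2a3 at 0.29 stand away from the rest, which lie between -0.21 and 0.22.

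Summed markers of other cells moved with Idh1 and Slc2a3, and their part in either value was not tested. The comparison was made for 12 marker lists, of which those set out here were picked after their values were seen. The 4 endothelium markers (Pecam1, Cdh5, Cldn5, Tek) summed to 156.7 to 172.4 CPM in CNTR and 119.4 to 168.5 in PAMH F3. The libraries with the 3 lowest sums, PAMH F3 2, 3 and 4, were also the 3 lowest for Idh1. Of the 4 markers 2 had an unadjusted p under 0.05 and were lower, Pecam1 (log2 fold change -0.44) and Cldn5 (-0.51), against 3.74% of all genes lower. Without surrogate variables Cldn5 kept an unadjusted p under 0.05 and Pecam1 did not (0.093 in edgeR). The 6 luteal markers summed to 6373 to 8473 CPM in CNTR and 4663 to 7481 in PAMH F3, and 2 of the 6, the prostaglandin receptor gene Ptgfr (-0.95) and the prolactin receptor gene Prlr (-0.36), had an unadjusted p under 0.05 and were lower. Star of the same list had a log2 fold change of 0.13, and the unadjusted p of Prlr was 0.257 in edgeR without surrogate variables. None of these markers passed the adjusted threshold in edgeR, with adjusted p of at least 0.522, and none was at 0 in all libraries.

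Slc2a3 moved with the summed markers of oviduct epithelium, tissue that adjoins the ovary. The 3 markers Ovgp1, Foxj1 and Pax8 summed to 5219.5, 3991 and 2916 CPM in CNTR and 4051, 4518, 6353 and 2484 in PAMH F3. The 2 lowest sums, in CNTR 3 and PAMH F3 4, were in the 2 libraries lowest for Slc2a3, and the highest of both was in PAMH F3 3. Ovgp1, which encodes the oviduct glycoprotein, made up most of the sum with 2377 to 6203.5 CPM, so the labelled ovaries held transcripts of oviduct markers in all libraries. Pax8 was also lowest in CNTR 3 (23.6 CPM) and highest in PAMH F3 3 (51.7). Foxj1 did not follow Slc2a3. It was lowest in PAMH F3 1 (64.3 CPM) and highest in CNTR 2 (142.0), with a log2 fold change of -0.19. None of the 3 markers had an unadjusted p under 0.05. The sum of the theca markers (Cyp17a1, Lhcgr and Insl3) ran the other way, highest in CNTR 3 at 946.4 CPM and lowest in PAMH F3 3 at 485.9. Lhcgr was lowest in PAMH F3 3 (309.7 CPM). Cyp17a1 was highest in CNTR 3 (426.1 CPM) but lowest in CNTR 1 (141.3). Insl3 was at most 0.15 CPM and was not tested. The luteal sum, which also holds Lhcgr, was highest in CNTR 3 too. The adipocyte sum, from 83.0 to 646.7 CPM, was lowest in PAMH F3 4 and highest in CNTR 1. The defining markers of skeletal muscle, a tissue rich in glycolytic enzymes, were near 0, with a sum of at most 2.76 CPM in any library.

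**Figure D4:**
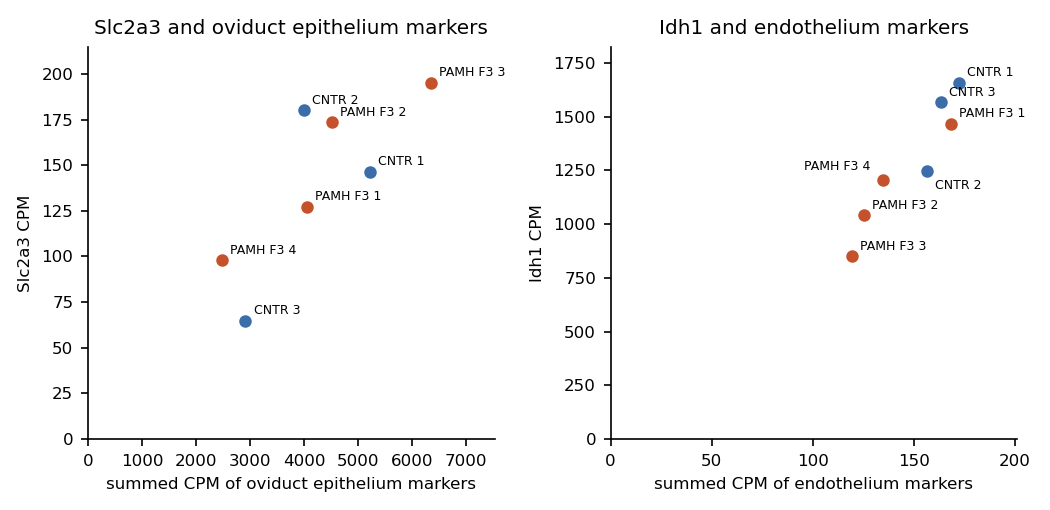
CPM of Slc2a3 against the summed CPM of 3 oviduct epithelium markers (left), and CPM of Idh1 against the summed CPM of 4 endothelium markers (right), with 1 point per library, CNTR in blue and PAMH F3 in orange. CNTR 3 and PAMH F3 4 are lowest on both axes of the left panel, and PAMH F3 2, 3 and 4 on both axes of the right panel.

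Across the 7 libraries the members did not rise and fall as 1 block. Over the 741 pairs of the 39 genes, the mean Pearson r of log2 (CPM + 1) was -0.002, and 364 pairs (49.1%) were above 0. Over all genes tested the mean was 0.001. With the group means removed the values were -0.005 and 0.002. Single pairs ranged from -0.94, for Pfkfb2 and Pfkfb3, to 0.97. All libraries come from the same tissue, and these values are a description. Spread itself was small, since 25 of the 39 genes had a coefficient of variation over the 7 libraries under 10%. The median was 8.51% against 14.4% over all genes tested. This comparison was not matched for count level, whose part in the difference was not tested. Only Aldoc, Slc2a3, Eno2 and Idh1 reached 20%, at 34.3%, 33.5%, 24.4% and 22.5%.

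Of 8 pairs picked by function, none passed after adjustment over the 8. Ldha and Slc2a1 had the highest r, 0.69 (exact permutation p = 0.0885 over all orders of the libraries, adjusted 0.591; n = 7), with a Spearman rho of 0.82 (exact permutation p = 0.0341, adjusted 0.273). Without PAMH F3 3 and PAMH F3 4, the libraries farthest from the median of Ldha, r was 0.45. Both genes also followed the first surrogate variable (r = -0.82 for Ldha and -0.88 for Slc2a1), which was not removed here. With how strongly the counts of a library followed GC content, r was 0.91 for Slc2a1 and 0.46 for Ldha. Ldha and Pkm had r = -0.35 (rho -0.46), Ldha and Pgk1 0.53 (rho 0.43), Ldha and Pdk1 0.29 (rho 0.32), Ldha and Slc16a3 0.10 (rho 0.14), Ldha and Ldhb 0.29 (rho 0.29), Cs and Mdh2 -0.55 (rho -0.46), and Idh1 and Idh2 -0.29 (rho 0.00). Their exact permutation p lay between 0.204 and 0.825 for r, with adjusted values between 0.591 and 0.825, and between 0.302 and 1 for rho, with adjusted values between 0.707 and 1. Leaving out the 2 libraries farthest from the median of the gene named first turned the sign for Ldha and Pgk1 (-0.15) and for Cs and Mdh2 (0.04), so both rest on those libraries. For the other pairs r was then -0.05 (Ldha and Pkm), 0.24 (Ldha and Pdk1), 0.16 (Ldha and Slc16a3), 0.49 (Ldha and Ldhb) and -0.44 (Idh1 and Idh2). Among 11284 other genes with a mean of at least 10 CPM, the pattern of Ldha over the 7 libraries was most like those of Fam183b (r = 0.974), Ptger4 (0.974), Trabd2b (0.971), Ica1 (0.970) and Arf4 (0.967).

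**Figure D5:**
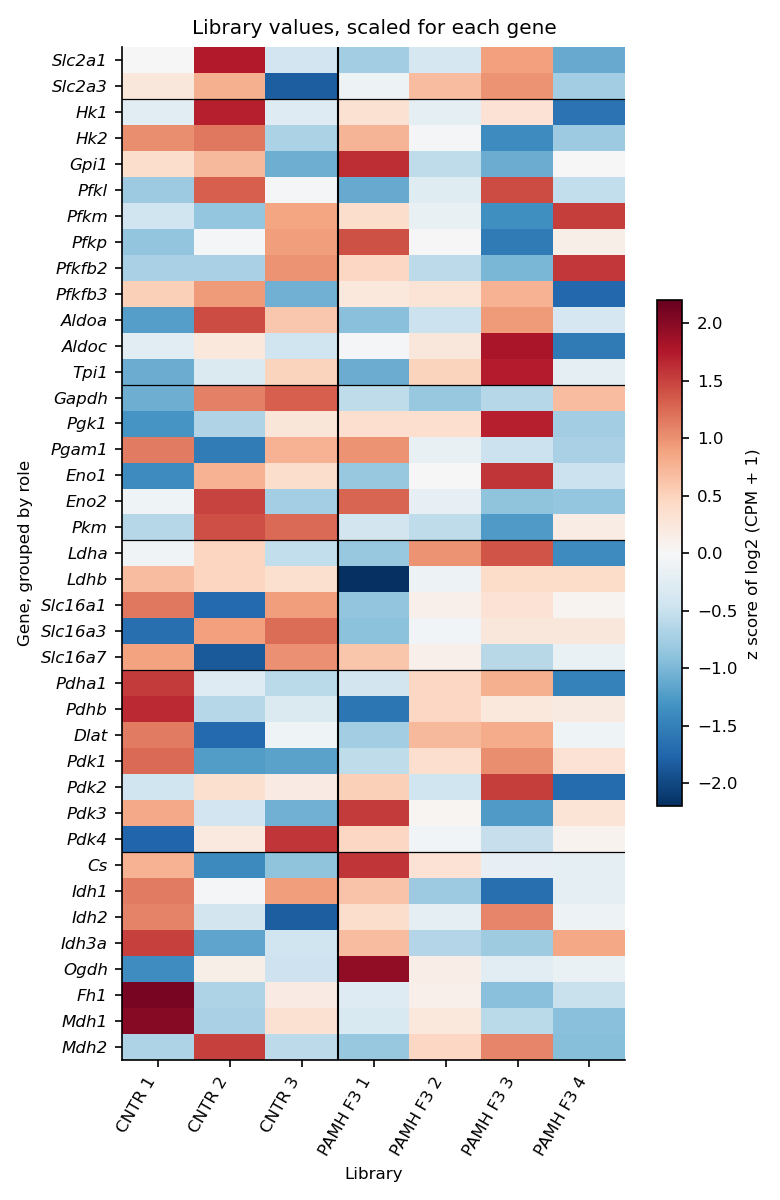
Values of the 39 genes in the 7 libraries as z scores of log2 (CPM + 1) within each gene, red above and blue below the gene's mean, with horizontal lines between roles and a vertical line between CNTR and PAMH F3. No role forms a block of 1 colour on either side of the line, and single libraries such as CNTR 1 and CNTR 2 carry many of the strong colours.

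The upstream sequence of members that moved most alike among the chosen pairs, Ldha and Slc2a1, and of Idh1, the member with the smallest unadjusted p, is shown to set them side by side. Capitals mark ACGTG and GCGTG, the core letters of the hypoxia response element, on either strand. CACGTG holds ACGTG on both strands and counts once. In the 250 bases before a RefSeq start (GRCm38.p6, 36 of 39 genes matched), ACGTG was found before at least 1 start in 17 of the 36 genes, against 4998 of all 27025 genes, and GCGTG in 24 of the 36 against 8338 of the 27025. Such counts rise with the number of starts, 58 for the members and 32851 for all genes. Per start the shares were 44.8% against 16.6% for ACGTG and 55.2% against 28.2% for GCGTG. The median GC content of these stretches was 60.6% for the members and 52.4% for all, and its part in these counts was not tested. The Ldha stretch is chr7:46845554-46845803 (plus strand, 250 bases, 3 marked places), that of Slc2a1 is chr4:119108495-119108710 (plus strand, 216 bases, 1 marked place) and that of Idh1 is chr1:65186501-65186729 (minus strand, 229 bases, none). Bases inside an annotated exon of the gene were left out, and in Slc2a1 they hold the last bases of 1 ACGTG, for which the gene is counted. A second RefSeq start of Idh1, with chr1:65179143-65179392 before it, has 1 GCGTG in its 250 bases, and a second start of Ldha also has 1. For Ldha the start with the most marked places is printed, and for Idh1 the outermost start. The stretches were thus not picked by the same rule, and their numbers of marked places are not a like comparison.
Ldha: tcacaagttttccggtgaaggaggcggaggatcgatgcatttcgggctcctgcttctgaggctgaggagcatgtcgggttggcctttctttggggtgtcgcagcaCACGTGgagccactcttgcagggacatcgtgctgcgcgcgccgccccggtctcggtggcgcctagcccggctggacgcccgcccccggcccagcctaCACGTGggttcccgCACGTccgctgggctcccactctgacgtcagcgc
Slc2a1: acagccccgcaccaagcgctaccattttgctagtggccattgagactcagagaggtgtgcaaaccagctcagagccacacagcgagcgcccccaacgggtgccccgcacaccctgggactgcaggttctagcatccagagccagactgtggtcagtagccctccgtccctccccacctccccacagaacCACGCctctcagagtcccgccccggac
Idh1: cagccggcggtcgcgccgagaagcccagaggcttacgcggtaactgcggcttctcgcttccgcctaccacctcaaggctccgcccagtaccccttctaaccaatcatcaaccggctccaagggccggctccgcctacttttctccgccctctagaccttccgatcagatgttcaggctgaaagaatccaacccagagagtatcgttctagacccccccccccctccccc

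Other genes of the pathway were tested in 6 lists, and their counts are set against the 3.89% of all genes higher and 3.74% lower at an unadjusted p under 0.05. Of 6 gluconeogenesis genes tested, 2 had an unadjusted p under 0.05, both higher: the glucose-6-phosphatase gene G6pc3 (log2 fold change 0.19, unadjusted p = 0.0103) and Pck2, mitochondrial phosphoenolpyruvate carboxykinase (0.16, unadjusted p = 0.0301). Of 13 further isoforms and regulators of glycolysis, 1 was lower, Pfkfb4 (-0.18, unadjusted p = 0.0291). Of 11 genes of lactate and pyruvate transport and mitochondrial entry, 1 was higher, the D-lactate dehydrogenase gene Ldhd (0.20, unadjusted p = 0.048). Of 17 hypoxia response genes, 1 was higher, the adenylate kinase gene Ak4 (0.23, unadjusted p = 0.0362), and 1 lower, the adrenomedullin gene Adm (-0.69, unadjusted p = 0.0276). None of the 16 genes in the rest of the TCA cycle and none of the 7 pentose phosphate genes reached it in either direction. The remaining genes of smallest p in the lists, none of which reached it either, were Fbp2 (log2 fold change 0.19, unadjusted p = 0.188), Pgam2 (1.26, unadjusted p = 0.0685), Emb (0.24, unadjusted p = 0.13), Mpc2 (-0.12, unadjusted p = 0.148) and Ndrg1 (-0.29, unadjusted p = 0.0655). In the rest of the TCA cycle and the pentose phosphate pathway they were Acly (-0.14, unadjusted p = 0.0785), Aco1 (0.07, unadjusted p = 0.189), Me1 (0.07, unadjusted p = 0.231), G6pdx (0.09, unadjusted p = 0.148), Rpia (0.09, unadjusted p = 0.353) and Tkt (-0.07, unadjusted p = 0.461). In the 6 lists no gene passed the adjusted threshold in edgeR, with adjusted p of at least 0.542.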

How the data were processed

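RNA was measured in 7 ovary libraries, 3 CNTR and 4 PAMH F3. The authors aligned 50-base single reads to mm10 with STAR 2.5.3a and deposited raw counts per gene from uniquely aligned reads, made with HTSeq 0.6.1p1 in union mode. The Ensembl release and the strand setting are not given in the sources used here. The 5 summary lines of each file, which hold 45.8% to 47.5% of all its entries, were left out. Among them, the line for alignments at several places alone holds 37.7% to 40.7% of all entries. Of 55487 identifiers, 55394 matched GENCODE M21. Counts were tested in R 4.3.3 with edgeR 4.0.16 (TMM, filterByExpr with a minimum count of 10, quasi-likelihood F test, Benjamini-Hochberg) and 2 surrogate variables from sva 3.50.0. CPM used TMM factors over all gene counts, and log2 values used a pseudocount of 1. DESeq2 1.42.0 was an alternative. Shares and pairs had exact permutation tests. The fit was also run on data simulated from means and spreads fitted to these same counts. That run is no independent check of the model, and its outcome is not reported here. Members, lists and pairs were chosen with earlier results of these data known.

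Named genes were the 39 members, with full statistics for 12 fixed enzymes and for members with an unadjusted p under 0.05, up to 3 genes of smallest p in each pathway list, and the 5 genes most like Ldha. Some genes of the pathway lists and 1 sequence are not reported here. Endothelium, luteal and oviduct markers were named after their values were seen. Libraries come from separate mice. Marker lists also covered granulosa, theca, oocyte, stroma, smooth muscle, leukocyte, red cell and adipocyte genes; in these, 1 granulosa gene was higher and 2 granulosa genes and 1 stroma gene lower at an unadjusted p under 0.05 in edgeR, and none passed the adjusted threshold. Union mode counts reads in stretches where a member overlaps another gene (Pfkm, Pfkfb2 and Pkm on the same strand) as ambiguous, and 12 members overlap a gene on the other strand, which matters only if strand was not used. Sequences are from GENCODE M21 transcripts and RefSeq promoters of GRCm38.p6. CNTR 2 differed from the other libraries in how counts followed GC content, by 0.269 on the log2 scale per 10% GC against -0.106 to 0.042. Over the 7 libraries the r of members with this slope ran from -0.83 (Slc16a7) to 0.91 (Slc2a1). It was 0.86 for Hk1 and 0.84 for Mdh2, which like Slc2a1 were highest in CNTR 2.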

Additional observations from a re-analysis of the deposited data

Results flagged for a closer look

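Within the 4 PAMH F3 libraries, 3 of the 40 identifiers had 1 library far from the others, by a gap past the critical value of Dixon's test relative to the group's range. By chance about 1 in 20 such groups would. Gapdh was at 12.5 CPM in PAMH F3 4, against 9.98 to 10.4 in the other libraries of the group. Pdhb, a subunit of pyruvate dehydrogenase, was at 85.7 CPM in PAMH F3 1, against 93.4 to 94.6. Ogdh was at 348.7 CPM in PAMH F3 1, against 294.8 to 303.7. CNTR, with 3 libraries, was not examined in this way.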

How the results depend on the processing

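The count of members with an unadjusted p under 0.05, 2 in the main test, was 0 without surrogate variables, 1 with the replicate block (0 surrogate variables), 1 with the GC content and length correction (0 surrogate variables), and 2 to 5 when a library was left out, 5 without CNTR 1 (Gapdh, Idh2, Pdk1, Pkm and Slc2a3), where 17.1% of all genes were under it against 7.63% in the main test. The labels do not say that equal numbers pair mice, and same-numbered libraries deviated from their group means with r of 0.12, 0.125 and -0.325, so that of the CNTR libraries only CNTR 1 correlated best with its own number. In the block 442 genes had an unadjusted p under 0.05 against 1432. DESeq2 called 1 member and 107 genes past the adjusted threshold, no filter on low counts 0 members and 8 genes, and leaving out a library 0 members and 0 to 37 genes (37 without CNTR 1, 31 without PAMH F3 1), against 0 genes in the main test. Signs of values near 0 turned for Pfkl (-0.03 with 0 and with 1 surrogate variable, -0.02 in the block), Pdk4 (-0.02, -0.02 and -0.01, and -0.07 with the GC correction) and Mdh2 (-0.02 and -0.01). With a library left out, the log2 fold change of Pfkl ranged from -0.08 to 0.06, that of Slc16a1 from -0.17 to 0.06, that of Pdk4 from -0.16 to 0.15, that of Mdh2 from -0.06 to 0.06 and that of Ldha from -0.01 to 0.07. Over 17 alternatives Idh1 ranged from -0.61 to -0.33 (unadjusted p under 0.05 in 15) and Slc2a3 from 0.07 to 0.43 (in 13). Fits with a library left out and no surrogate variables were added after seeing the data. In these, Slc2a3 was at -0.14 without CNTR 3. Idh1 ranged from -0.53 to -0.28 in them, with unadjusted p from 0.0105 to 0.179 in edgeR. It was under 0.05 only without CNTR 2 or without PAMH F3 1. Without the 2 farthest libraries the r of Ldha and Pgk1 was -0.15 and that of Cs and Mdh2 0.04. The causes were not tested. The search for windows found once in the genome was not run, as no genome was used here. Gapdh, Pgk1 and Pgam1 rest on 220 to 623 counts per library, which limits the size of change that can be seen.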

Other observations

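Neighbours of Idh1 and Slc2a3 among 11284 other genes with a mean of at least 10 CPM, looked up after their values were seen, were of different kinds. For Idh1 they were Fam198b (r = 0.990 over 7 libraries), Txndc2 (0.985), Clcn5 (0.978), Lgalsl (0.965) and Aplp2 (0.963). For Slc2a3 they were the epithelial transcription factor gene Grhl2 (0.996), Limk2 (0.990), the choline dehydrogenase gene Chdh (0.989), the epithelial phosphate transporter gene Slc34a2 (0.984) and Kif5c (0.984). With this many genes and 7 libraries, values of this size are a description.

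Among phosphofructokinase subunits per kilobase, Pfkm took 43.8% to 52.6%, Pfkl 38.8% to 48.8% and Pfkp 7.44% to 10.6% over the 7 libraries, while per median transcript length Pfkl took 63.6% to 74.5% and Pfkm 8.18% to 11.0%. Of the hexokinase level Hk1 took 54.6% to 64.9% (81.4% to 87.1% per median transcript length), and of the malate dehydrogenase level Mdh1 took 67.0% to 73.9%. Pfkfb3 took 63.9% to 79.3% of the level of Pfkfb2 and Pfkfb3.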
